A study of Bos taurus with 100 samples.

Results

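The levels of 3 genes of the cytoskeleton were followed through 100 single cells: ENSBTAG00000014614 (ACTA2, smooth muscle actin), ENSBTAG00000026199 (ACTB, beta actin) and ENSBTAG00000018463 (VIM, vimentin). These are 3 of the 24616 gene rows of the deposited tables, and each had a row in both. They were chosen by identifier, with their levels in these cells already known, so all values are a description and no test was made. The symbols come from the Ensembl bovine annotation and not from the tables. The cells were bovine (Bos taurus) microvascular endothelial cells isolated from retina and grown to passage 3. The medium was DMEM with Primocin, insulin, heparin and porcine serum. They were captured as single cells on a Fluidigm C1 chip, a microfluidic device that lyses each cell and amplifies its cDNA in a chamber of its own. No treatment is named. The only groups are 2 runs of the instrument, run 1 with 49 cells and run 2 with 51, and the labels give both the same cell source, passage and protocol. They name no animal or culture for either run, so each run counts as 1 sample and a difference between the runs has no replicate check.

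Actins are the subunits of the thin filaments that shape a cell and let it pull. ACTB encodes a cytoplasmic actin made by nearly all cells and found in the cell cortex and in stress fibres. ACTA2 encodes the actin of the contractile apparatus of vascular smooth muscle, is also made by many pericytes and by myofibroblasts, and can appear in endothelial cells that take on mesenchymal traits. VIM encodes the intermediate filament protein of mesenchymal cells and is also abundant in endothelium. The endothelial label could not be checked against markers such as PECAM1 or VWF, because no table used here pairs the identifiers with symbols. For the same reason smooth muscle, pericyte and fibroblast markers and the other actin cytoskeleton genes were not read, and their part in the results below was not tested. The actin genes have similar coding sequences, and the rule for counting reads that match more than 1 gene is not given in the sources used here. How such reads were divided between ACTA2, ACTB and other actin rows is therefore uncertain and was not tested. In run 2, 184 reads were assigned to ACTA2 beside 1578892 to ACTB. Run 1 cell 12 had 0 ACTA2 reads beside 5791 of ACTB.

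A run 1 cell had 230083 to 798667 reads assigned to genes (median 418501) and a run 2 cell 47118 to 3693862 (median 1964952). Levels are given as CPM, reads per 1000000 reads of the cell or, for a summed level, of all cells of the run. Run 1 cells 12 and 47 stand apart in their profile. In run 2, cells 74 and 87 have most of their reads in a few genes. Earlier results of these data picked out 7 pairs of cells in neighbouring wells as near-identical in profile (50 and 51, 68 and 69, 70 and 71, 75 and 76, 89 and 90, 94 and 95, 97 and 98). Whole profiles are not compared here, and in VIM the cells of a pair differed by 1.21 to 1.47 times. Such pairs are called near-identical below, and their cells are not known to be separate. Some of the values are also given without the cells named in this paragraph. Leaving out cells 12 and 47 gave summed run 1 levels of 6765 CPM for ACTA2, 20344 CPM for ACTB and 3248 CPM for VIM. Leaving out cells 74 and 87 gave summed run 2 levels of 1.81, 15469 and 1876 CPM, and leaving out the shallower cell of each near-identical pair gave 1.80, 15280 and 1840 CPM.

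ACTA2 was among the leading genes of run 1. It had 137024 reads there, a summed level of 6612 CPM (exact Poisson 95% interval 6577 to 6647, which covers counting error only), and ranked 12 among all genes of the run. The lowest run 1 cell had 0 CPM, the median cell 5976 CPM and the highest 18957 CPM, with quartiles of 3467 and 8334 CPM. Nearly all run 1 cells thus held abundant ACTA2, but over a wide range. A level of 10000 CPM or more was reached by 10 cells, 33 cells lay between 1000 and 10000 CPM, 4 between 100 and 1000 CPM and 2 under 100 CPM. Cell 29 was the highest, followed by cell 22 with 16969 CPM, cell 13 with 16642 CPM and cell 39 with 16485 CPM.

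The 6 run 1 cells with under 1000 CPM of ACTA2 were at or below the lower quartile of the run in ACTB, 15089 CPM. Cell 12 had no ACTA2 read among 411610 reads, which allows a level of up to 7.29 CPM, and 14069 CPM of ACTB. Cell 19 had 4 ACTA2 reads (11.2 CPM), an ACTB level of 15089 CPM and a VIM level of 3381 CPM. Cell 49 had 168.4 CPM of ACTA2 together with the lowest ACTB level of run 1, 2965 CPM. Cell 23 had 177.8 CPM of ACTA2 and the next lowest ACTB level, 7739 CPM. Cells 44 and 3 followed with 548.6 and 734.6 CPM of ACTA2 and with ACTB levels of 12203 and 14252 CPM. In VIM, cell 19 was above the median of the run, 3088 CPM, and the others were below it.

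**Figure D1:**
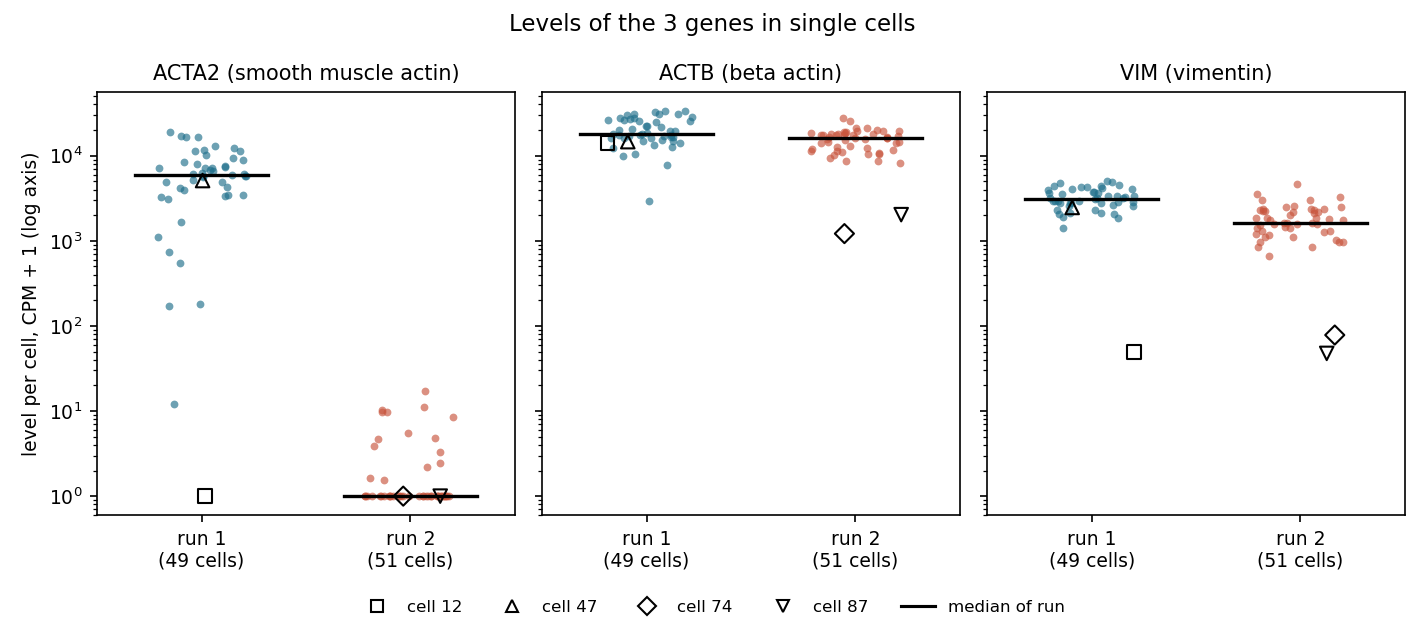
Level of ACTA2, ACTB and VIM in each cell, as CPM + 1 on a log axis, for the 49 cells of run 1 and the 51 of run 2; each point is a cell, the bar is the median of the run, and open symbols mark run 1 cells 12 and 47 and run 2 cells 74 and 87. The median ACTA2 level is 5976 CPM in run 1 and 0 CPM in run 2, while the ACTB and VIM points of the runs overlap.

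In run 2, ACTA2 was close to absent. All 51 cells together held 184 ACTA2 reads, a summed level of 1.78 CPM (interval 1.53 to 2.06), and the gene ranked 10199 in that run. The lowest and the median cell had 0 CPM and the highest, cell 81, had 16.1 CPM. At least 1 read was found in 15 of 51 cells (29.4%, exact Clopper-Pearson 95% interval 17.5% to 43.8%), against 48 of 49 in run 1 (98.0%, interval 89.1% to 99.9%). Intervals on shares of cells take the cells as independent draws, which the near-identical pairs may not be, and hold no variation between runs of the instrument. At 10 CPM or more the count was 2 of 51 cells in run 2 (3.92%, interval 0.478% to 13.5%) and again 48 of 49 in run 1. Since no cell type that lacks ACTA2 could be identified here, the share of cells with a read has no background to be set against.

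Those few reads were unevenly spread over the run 2 cells. A cell with any ACTA2 read had 2 to 47 of them (median 8), and its level was 0.541 to 16.1 CPM (median 3.87 CPM). Cell 81 alone held 25.5% of the run's ACTA2 reads, and the 4 leading cells held 58.7%. Without cell 81 the summed run 2 level was 1.36 CPM, below the counting interval of 1.53 to 2.06 CPM given above. That interval takes reads as independent draws and leaves out the spread among cells. Median depth differed little between the 15 cells with an ACTA2 read, 2134816 reads, and the 36 without one, 1947012.5. The low end of depth did differ. The shallowest cell with an ACTA2 read, cell 97, had 1396546 reads, and the shallowest without one, cell 90, had 47118. For the 36 cells, a count of 0 allows up to 0.891 to 63.7 CPM (median 1.54 CPM). The upper end belongs to cell 90, the shallowest, and still lies far under the lower quartile of run 1. With cells thinned to 300000 reads, which left out 3 run 2 cells and 7 run 1 cells, 11 of 48 run 2 cells (22.9%) and 41 of 42 run 1 cells (97.6%) had an ACTA2 read. Thinned to 47000 reads, all cells kept, the counts were 4 of 51 (7.84%) and 48 of 49. These counts come from 1 random draw. The counts expected were 10.1 of 48 and 41.0 of 42 at 300000 reads, and 3.18 of 51 and 47.4 of 49 at 47000. Across the run 2 cells as sequenced, the Spearman correlation of ACTA2 level with total reads was 0.145.

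**Figure D2:**
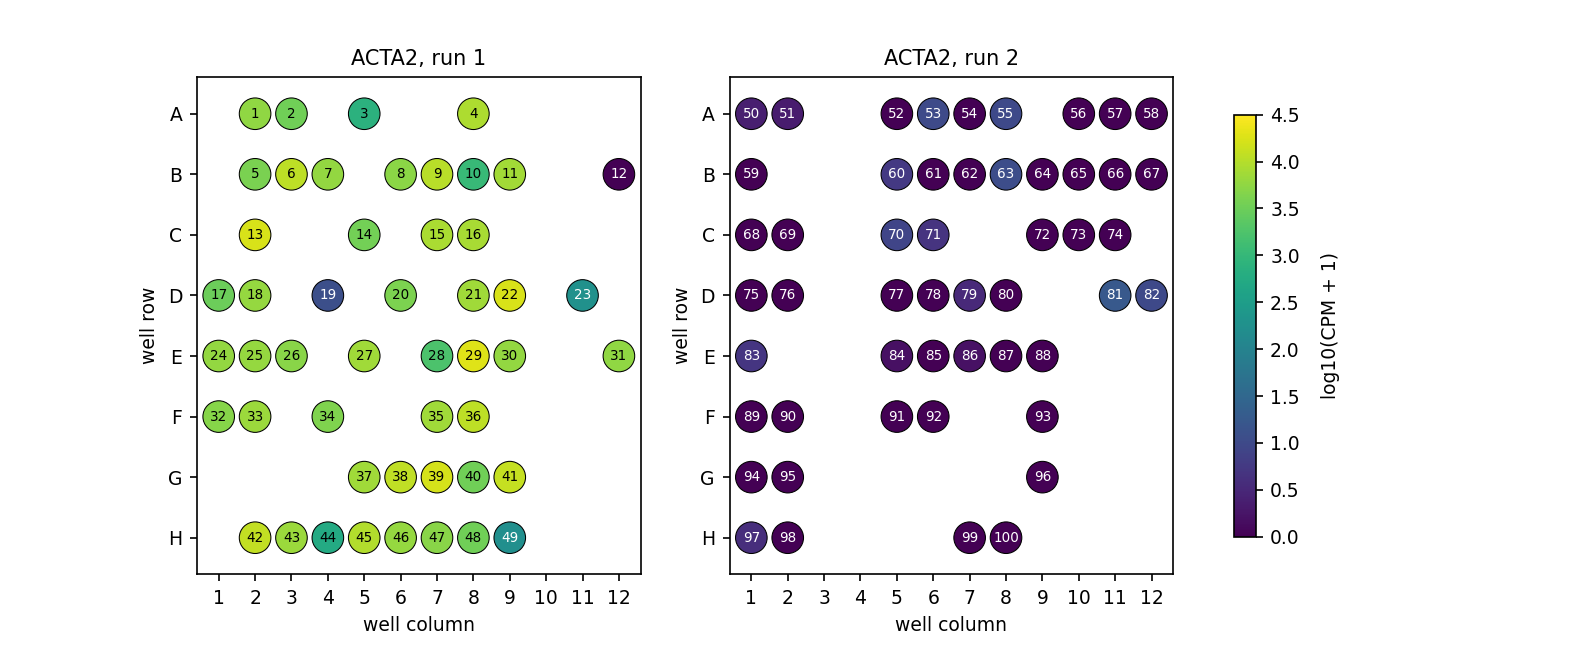
ACTA2 level by well (row and column as in the titles of the samples), with run 1 on the left and run 2 on the right; each disc is a cell with its number and its colour is log10(CPM + 1). Run 1 cells are high in nearly every well, with cells 12 and 19 as dark exceptions, and the 15 run 2 cells with ACTA2 reads are 14 of the 39 cells in rows A to E, 0 of the 8 in rows F and G and 1 of the 4 in row H.

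By position, 14 of the 15 run 2 cells with an ACTA2 read had a captured neighbour in the same row, and for 6 of them that neighbour also had an ACTA2 read. Of the 36 cells without a read, 33 had such a neighbour and for 10 of them it had an ACTA2 read. The 6 cells were 50 and 51 (1.42 and 1.22 CPM), 70 and 71 (7.50 and 3.71 CPM) and 81 and 82 (16.1 and 8.71 CPM). The first 2 of these couples are among the near-identical pairs named above, so their reads are not known to be separate observations. Without the shallower cell of each near-identical pair, 13 of 44 cells had an ACTA2 read and the summed level was 1.80 CPM.

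Between the runs, ACTA2 differed by 3716-fold in summed CPM (counting interval 3216 to 4318), a log2 ratio of run 2 over run 1 of -11.86. Without the cell with most ACTA2 reads in each run, the log2 ratio was -12.15, outside the counting interval of -12.08 to -11.65. The counting interval thus understates how far the ratio depends on single cells. Of the 6378 genes that reached 20 CPM in either run, 8 had a lower ratio than the -11.86 of all cells. All 8 had fewer than 3 reads in run 2, so that their ratios rest on a floor of 3 counts, and none was above 312.7 CPM in run 1. The 11 genes more abundant than ACTA2 in run 1 had log2 ratios between -1.95 and 0.14. ACTB and VIM were also lower in run 2, by much smaller amounts: 1.32-fold (interval 1.316 to 1.325) and 1.72-fold (interval 1.70 to 1.73). Their log2 ratios were -0.40 and -0.78, beside a median of 0.18 and quartiles of -0.38 and 0.79 over the 6378 genes. With a difference of 2-fold or more as the limit, 1 of the 3 genes was lower in run 2, where 10.9% of all genes compared were, and 0 of 3 were higher, where 19.6% were. What sets the runs apart in donor, culture or handling is not given in the labels, and these cannot be told apart.

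**Figure D3:**
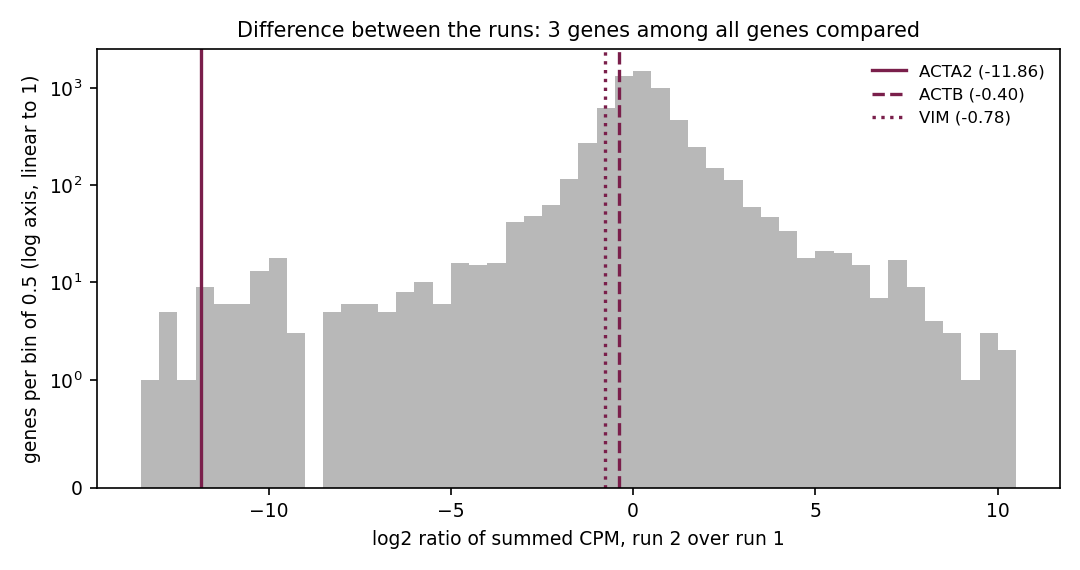
Distribution of the log2 ratio of summed CPM, run 2 over run 1, for the 6378 genes that reached 20 CPM in either run, in bins of 0.5, with the number of genes on a log axis that is linear up to 1. Vertical lines mark the 3 genes: ACTA2 at -11.86 lies near the lower end, and VIM at -0.78 and ACTB at -0.40 lie in the central peak.

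ACTB was abundant in every cell of both runs. Its summed level was 20156 CPM in run 1 (interval 20095 to 20217), where it ranked 2, and 15266 CPM in run 2 (interval 15243 to 15290), where it ranked 1. All 49 run 1 cells and all 51 run 2 cells had a read (intervals from 92.7% and 93.0%). In run 1 the lowest cell had 2965 CPM, the median cell 18177 and the highest, cell 38, 33290. In run 2 the lowest, cell 74, had 1214 CPM, the median cell 15925 and the highest, cell 93, 27470. The ranges of the runs overlap over most of their length, and 10 run 1 cells lay above the highest run 2 cell. ACTB was the gene with most reads in 17 run 1 cells and 31 run 2 cells and was among the 10 leading genes in 48 of 49 and 49 of 51 cells. The exceptions in run 2 were cells 74 and 87, with 1214 and 2028 CPM, and the exception in run 1 was cell 49. Without cells 74 and 87 the lowest run 2 level was 8173 CPM.

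VIM was likewise found in all cells, at lower levels in run 2. Its summed level was 3176 CPM in run 1 (interval 3152 to 3201) and 1850 CPM in run 2 (interval 1842 to 1858). The lowest run 1 cell had 48.6 CPM, the median cell 3088 and the highest, cell 37, 5091. In run 2 the lowest, cell 87, had 46.5 CPM, the median cell 1637 and the highest, cell 81, 4605. Only 3 of the 51 run 2 cells were above the run 1 median, and these were cells 81, 85 and 77. The lowest cells were among those that stand apart: cell 12 in run 1, and cells 87 and 74 in run 2. Cell 47 was not among the lowest, with 2464 CPM. Without cells 12 and 47 the run 1 range was 1410 to 5091 CPM, and without cells 74 and 87 the run 2 range was 670.3 to 4605 CPM, so that the runs still overlapped. Within a cell, VIM had a median rank among all genes of 27 in run 1 and 62 in run 2.

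The 3 genes varied among cells to different degrees. In run 1, the coefficient of variation (CV, the SD over cells divided by their mean) was 0.697 for ACTA2, 0.356 for ACTB and 0.310 for VIM. Among 311 genes with at least 500 CPM in run 1, whose median CV was 0.357, 288 had a lower CV than ACTA2, 151 a lower one than ACTB and 116 a lower one than VIM. Of the 13 genes with at least 5000 CPM there, ACTA2 had the highest CV, and the next was 0.441. Just under that limit, ENSBTAG00000037651, with a mean of 4967 CPM, had a CV of 0.551. Spread at a given level also depends on the cells included, and without cells 12 and 47 the CVs of the 3 genes were 0.678, 0.354 and 0.272. In run 2 the CV was 0.331 for ACTB and 0.469 for VIM, and 0.273 and 0.418 without cells 74 and 87. Without the shallower cell of each near-identical pair, these were 0.348 and 0.501. Over 222 genes with at least 500 CPM in both runs the median CV in run 2 was 0.373. VIM thus varied less than ACTB in run 1 and more in run 2, in both cases also without the cells that stand apart. For ACTA2 in run 2 the CV was 2.15, a value that rests on 15 cells with a read.

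**Figure D4:**
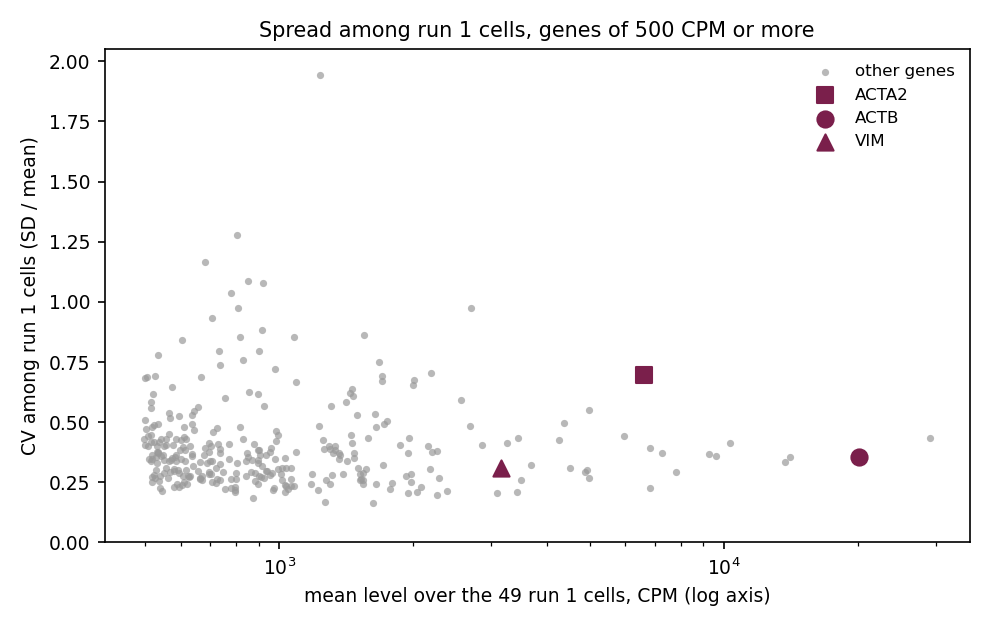
CV among the 49 run 1 cells against the mean level in CPM (log axis) for the 311 genes with at least 500 CPM in run 1; grey points are other genes and filled symbols the 3 genes described. ACTA2, at 0.697, lies above the other genes of 5000 CPM or more, and ACTB (0.356) and VIM (0.310) lie near the median of 0.357.

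Within run 1, the 2 actins varied together. Across the 49 cells, which share a library preparation and a total that each level is divided by, the Spearman correlation of CPM was 0.679 between ACTA2 and ACTB, 0.479 between ACTB and VIM and 0.210 between ACTA2 and VIM. Without cells 12 and 47 these were 0.659, 0.443 and 0.151. On log2(CPM + 1), Pearson's value for ACTA2 and VIM was 0.669 with all cells and 0.202 without cells 12 and 47. ACTA2 had Spearman values of -0.0652 with total reads and 0.140 with the number of genes with a read, and those of ACTB were 0.0292 and 0.142. In run 2, ACTB and VIM had a Spearman correlation of 0.130 over 51 cells, 0.0187 without cells 74 and 87 and 0.100 without the shallower cell of each near-identical pair. Pearson's value on the log scale was 0.711 with these cells and -0.00158 without them, so the log-scale relation in run 2 rests on the pair. For ACTA2 in run 2, where 36 cells are tied at 0, the values of -0.308 with ACTB and 0.100 with VIM carry little. Without cells 74 and 87 they were -0.376 and 0.0610. Run 2 cell 81, with the highest ACTA2 and VIM levels of its run, had 8651 CPM of ACTB, rank 47 from the highest in that run.

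**Figure D5:**
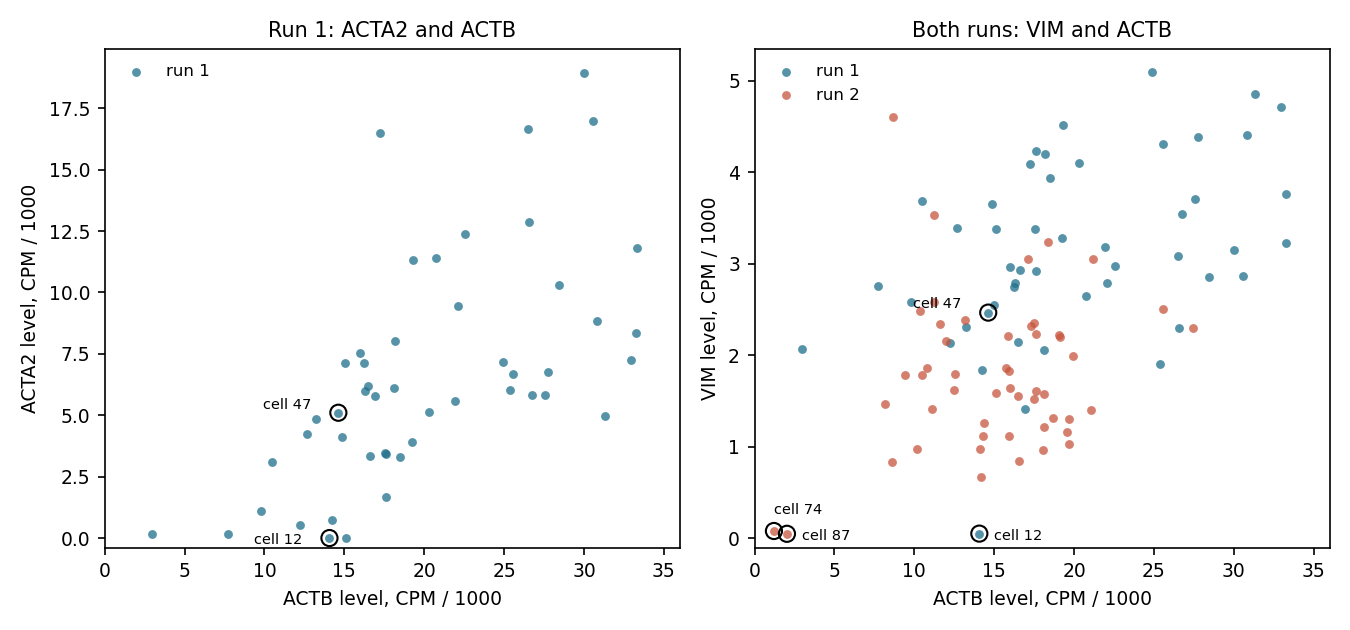
Left, ACTA2 against ACTB in the 49 run 1 cells; right, VIM against ACTB in all 100 cells, all as CPM divided by 1000, 1 point per cell, with rings around cells 12, 47, 74 and 87. Run 1 cells with more ACTB tend to have more ACTA2 (Spearman 0.679), and cell 12 combines an ACTB level of 14069 CPM with almost no VIM (48.6 CPM).

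The share of actin reads assigned to ACTA2, out of ACTA2 plus ACTB, does not depend on the rest of the library. It was 24.7% over the summed reads of run 1 (exact interval 24.6% to 24.8%) and 0.0117% over those of run 2 (interval 0.0100% to 0.0135%). These intervals cover counting error only and not the spread among cells. Gene lengths were not taken into account, so the share compares cells and is not a ratio of molecules. In run 1 the lowest cell had 0%, the median cell 22.3% and the highest, cell 39, 48.9%, with quartiles of 16.8% and 30.0%. A share above 10% was found in 42 of the 49 run 1 cells, and a share under 1% in 2, cells 12 and 19. In run 2 every cell was under 1%, and the highest, cell 81, had 0.185%. The runs did not overlap in this share except for these 2 run 1 cells. The 3 genes together took a median of 2.65% of a run 1 cell's reads (0.520% to 5.21%) and 1.76% of a run 2 cell's (0.129% to 2.98%).

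Run 1 cell 12 departed from its run in 2 of the 3 genes. It had 0 ACTA2 reads and 20 VIM reads (48.6 CPM), the lowest of the run for both, and 14069 CPM of ACTB, above 7 other run 1 cells. In ACTA2 it was like most run 2 cells. In VIM it was below 50 of the 51 run 2 cells, so its VIM level matched neither run apart from run 2 cells 74 and 87. Unlike those 2 cells, it had an ACTB level between the quartiles of run 2 (11443 and 18140 CPM). Run 1 cell 47 had 5103 CPM of ACTA2, above every run 2 cell and above 18 run 1 cells. Its ACTB level of 14625 CPM and its VIM level of 2464 CPM were above 9 and 10 run 1 cells, and ACTA2 made up 25.9% of its actin reads. By these 3 genes cell 47 lay within its run. Cells 74 and 87 of run 2 had 77.1 and 46.5 CPM of VIM and 0 ACTA2 reads. Cell labels were kept as given, and whether cell 12 is rightly labelled was not tested.

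The near-identical run 2 pairs were close in ACTB. They were taken from earlier results of these same data for their like profiles, so closeness in an abundant gene follows in part from that choice. The larger ACTB level was 1.00 to 1.32 times the smaller in the 7 pairs (median 1.02), against a median of 1.37 (quartiles 1.14 and 1.73) over the 1268 other pairs of run 2 cells. For VIM the pairs differed by 1.21 to 1.47 times (median 1.28), against 1.55 (quartiles 1.24 and 2.16). Cells 89 and 90 had 15925 and 15875 CPM of ACTB although cell 90 had 47118 reads in all. ACTA2 reads were at 0 in both cells of 4 pairs, present in both cells of 2 pairs, and in the pair 97 and 98 were 4 and 0, with cell 98 at 109329 reads.

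For each gene, the other gene whose levels ran most like it across cells was taken by the mean of the Spearman correlations within the 2 runs, restricted to genes detected in 50% or more of the cells in both runs. For ACTB it was ENSBTAG00000006189, with 0.771 in run 1 and 0.555 in run 2, beside a median mean correlation of 0.048 over 5363 genes. For VIM it was ENSBTAG00000014835, with 0.460 and 0.523 (median 0.018). For ACTA2 it was ENSBTAG00000010153, with 0.641 in run 1 and 0.282 in run 2 over 5364 genes, where the run 2 value rests on few reads. Over run 1 cells alone, a choice made after seeing the data, it was ENSBTAG00000011424, with 0.759 among 5803 genes. That gene had a summed level of 2556 CPM in run 1 and 15.3 CPM in run 2. Each is the highest of all the values computed for that gene and is given as a description.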

How the data were processed

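Per the submitters' processing notes, the genome build was UMD3.1 and the tools included STAR 2.5.3a and HTSeq 0.6.1p1, with bcl2fastq, MultiQC and FastQC 0.11.3. No options are given in the sources used here. What the authors deposited is raw read counts per Ensembl gene, 1 table per run, without molecular identifiers. Of the 24616 identifiers, 0 were found in a RefSeq gene table of another assembly (ARS-UCD2.0), so the 10 marker and pathway lists were not computed. The members and lists were chosen with earlier results of these data known, and the cells that stand apart and the 7 close pairs were taken from those results. Counts were summed over the cells of a run or divided by each cell's total. Ratios used a floor of 3 counts over the run. Named genes were the 3 members and, by rule, the gene most like each. No test, p-value or standard error is given, since each run is 1 sample. Doublets were not called. Alternatives covered cell weights, scaling (edgeR 4.0.16 TMM, median of ratios), thinning, correlation measure and left-out cells. The ratio and likeness code was checked on counts with planted answers. Python 3.11.15, numpy 2.4.6, pandas 2.3.3 and scipy 1.17.1 were used.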

Additional observations from a re-analysis of the deposited data

How the results depend on the processing

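Of 199 values recomputed under alternatives, 52 could not move, since the cells left out were of the other run or every cell had a read. Of the other 147, 133 stayed close to the reported value. No ratio between the runs changed direction. Close means within 1 SD between cells for levels and actin shares, within the counting interval for shares of cells, within 1.5 times for ratios and CVs, and within 0.1 for correlations. The limit for levels is wide: the run 2 ACTA2 level, 1.78 CPM with an SD of 3.44 CPM, counted as close at a median of 0 CPM. The number of close values is therefore no measure of how firm the levels are. The ACTA2 log2 ratio was -12.55 from medians of cells (CPM + 1). The ACTA2 share of cells with a read was 100% in run 1 without cells 12 and 47, and in run 2 it was 3.92% at 10 CPM or more and 7.84% at 47000 reads. The ACTA2 CV in run 2 was 3.46 at 47000 reads, from 1 random draw in which 4 of 51 cells had a read. With Pearson's measure on log2(CPM + 1), run 1 gave 0.536 for ACTA2 and ACTB, 0.669 for ACTA2 and VIM and 0.259 for ACTB and VIM. Without cells 12 and 47, also chosen after seeing the data, these were 0.644, 0.202 and 0.397, each within 0.1 of Spearman's value with all cells. Run 2 gave -0.106 for ACTA2 and ACTB and 0.711 for ACTB and VIM. Without cells 74 and 87, a combination chosen after seeing the data, these were -0.386 and -0.00158. Spearman's value for ACTB and VIM in run 2 was 0.0187 without these cells. At 47000 reads, in the same random draw, run 2 gave -0.186 for ACTA2 and ACTB and 0.240 for ACTA2 and VIM. Apart from the settings that leave out the named cells or reads, the cause was not tested. ACTB and VIM stayed under a 2-fold difference in all 10 alternatives, with log2 ratios of -0.51 to -0.19 and -0.91 to -0.76. In run 2 cells 90, 95 and 98, a count of 0 allows up to 63.7, 50.0 and 27.4 CPM of ACTA2. No paired analysis was possible because no cell number occurs in both runs.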

Other observations

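In each of the 7 near-identical pairs of run 2, the cell in the higher well column had the higher VIM level, 7 of 7, and in 6 of 7 it was also the shallower cell that was higher. Among the 24 other pairs of neighbouring wells of run 2, VIM was higher in the higher column in 11 and in the shallower cell in 12. For ACTB the counts by column were 4 of 7 and 12 of 24, and the shallower cell was higher in 5 of 7 and 9 of 24. This pattern was noticed in these data and was not tested.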
